A study of Mus musculus with 100 samples.

Results

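RNA from intra-abdominal fat of wild-type mice aged 19 weeks was compared between a normal chow diet and 12 weeks of high fat diet. The comparison drew on 15 of the 100 libraries of the series. The chow group had 3 replicates, each sequenced as 4 repeat libraries that were averaged, and the high fat group had 3 replicates of 1 library each. The series as a whole asks which genes depend on GPS2, a partner of NCoR and SMRT corepressors, in adipocytes during obesity and adrenergic activation. None of the replicates here is labelled knockout, and the wild-type genotype stands in the sample titles alone. The strain label reads Adipoq-Cre-Gps2flox/flox for every sample, wild type included, so which of these alleles the wild-type mice carried stayed unknown here. The Adipoq promoter drives Cre in fat cells. The length of each diet was read from the name of the deposited table. Other groups are given beside it: 4 replicates of wild-type fat after 4 weeks of high fat diet at 11 weeks of age, 3 replicates of adipocytes isolated from wild-type mice at 19 weeks, and the same chow and diet groups labelled knockout, 3 replicates each, of which chow replicates 1 and 2 were nearly the same. The adipocytes had a table of their own, scaled separately by the authors, whose name also gives 12 weeks of high fat diet. Nothing says that replicates came from separate mice, so p-values measure only how these samples spread, and that spread may be technical.

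White fat stores triglyceride in adipocytes and releases it as fatty acids, and it secretes hormones such as leptin and adiponectin. When energy intake stays high, fat cells enlarge, the collagen network around them is rebuilt, and macrophages gather around stressed fat cells. Bulk RNA holds all of these cells at once, so fewer cells of a type and less RNA per cell cannot be told apart.

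Diet and sequencing run were the same split of the samples. The chow libraries were deposited in one table and the high fat libraries in another, each scaled by the authors on its own, so a difference between the diets and a difference between the runs cannot be told apart. Deposited totals over 1 transcript per gene were 11050172 to 13491566 in chow and 44965407 to 48525167 on the diet, and all values below were put on 1 common scale, given as rescaled reads per 1000000 reads (rpm). The recovered read totals were 53132860 to 55858941 in chow and 29338088 to 58588042 on the diet. Fold change moved with transcript properties: Spearman's rho across 16406 genes was 0.154 with transcript length and -0.260 with GC content. Of the 3282 genes with the shortest transcripts, 26 were higher on the diet and 174 lower, and of the 3281 with the longest, 157 were higher and 53 lower. Of the 76 genes named by rule, 68 had passed the test, and centring each sample within bins of length and GC ended the call of 31. These are given with their centred p-values below or as the list's count, and the part of length and GC in the differences was not tested.

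**Figure D1:**
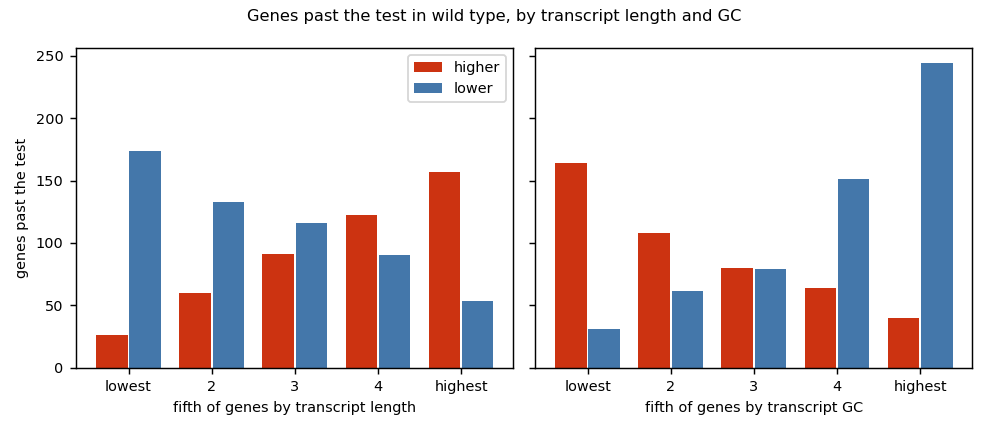
Genes past the test in wild type (y axis, number of genes), higher (red) or lower (blue) on the diet, in 5 equal bins of transcript length (left) and of transcript GC content (right). In the bin of highest GC 40 genes were higher and 244 lower, and in the bin of lowest GC 164 were higher and 31 lower.

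The labelled tissue was checked against its markers. All 20 genes of an adipocyte list were at 1 rpm or more in all 6 replicates, and their summed level was 58893, 26055 and 65789 rpm in chow replicates 1 to 3 and 53042 to 71783 rpm on the diet. Chow replicate 2 stood apart. It held 3588 rpm of Crisp1 and 505 rpm of Defb42, both epididymal genes, against at most 3.18 rpm of Crisp1 in the other 5 replicates. Its summed smooth muscle and mural markers were 26293 rpm against 1815 to 2121 rpm in the others. Diet replicate 1 held sperm genes, with Prm2 at 441 rpm and Tnp1 at 191 rpm, and its epididymis and testis list summed to 1437 rpm against 1.06 and 0.143 rpm in the other diet replicates. B cell markers summed to 532, 254 and 26.9 rpm in chow replicates 1 to 3 and to 30.5 to 68.5 rpm on the diet. General macrophage markers were highest in diet replicate 3, at 3489 rpm against 1062 to 2258 rpm elsewhere. The isolated adipocytes differed too, with these markers at 122, 94.5 and 1067 rpm in adipocyte replicates 1 to 3. Liver RNA also differed among replicates, with Alb, the albumin gene, at 507, 9.78 and 25.8 rpm on chow and 17.0, 61.5 and 236 rpm on the diet. Mast cell markers summed to 85.5 to 195 rpm on chow and 43.5 to 57.6 rpm on the diet. All 10 of 10 tested were lower on the diet, with 1 past the test (10%, against 3.45% of all genes). The part of these cells in the results was not tested. Counts below are also given without chow replicate 2 and diet replicate 1, an alternative chosen after seeing the data.

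**Figure D2:**
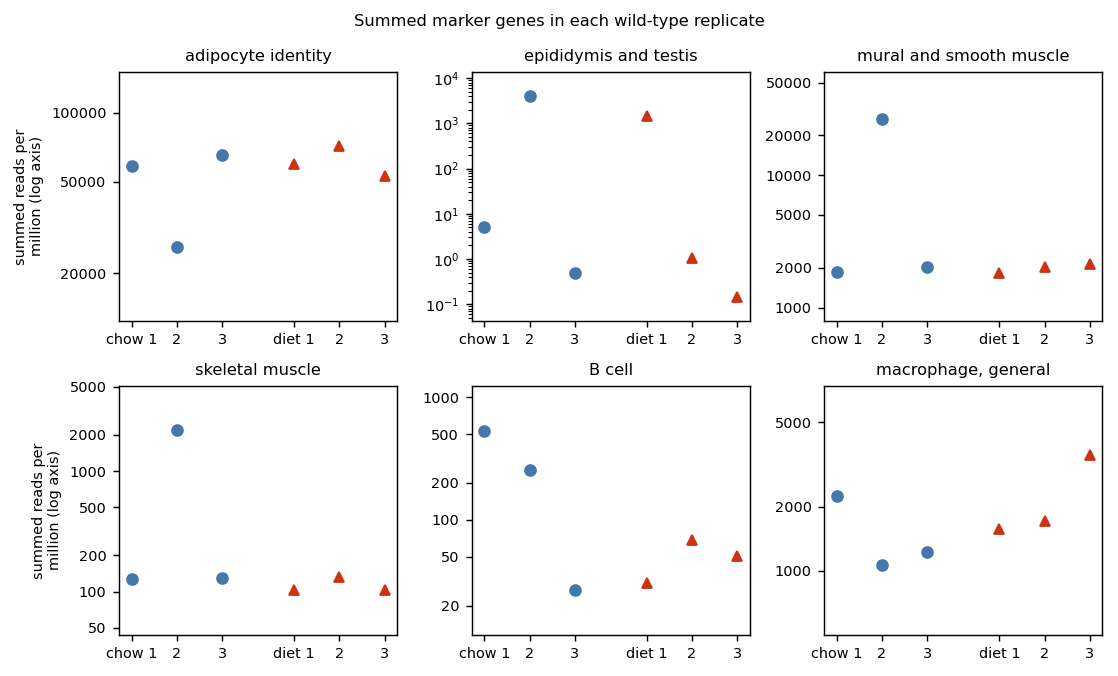
Summed rpm of 6 marker lists (log axis) in each wild-type replicate, chow as circles and high fat diet as triangles. Chow replicate 2 is lowest for adipocyte genes, at 26055 rpm, and highest for the epididymis and testis, smooth muscle and skeletal muscle lists. Diet replicate 1 is second highest for the epididymis and testis list. The skeletal muscle sum of chow replicate 2, 2187 rpm, held 1521 rpm of Des, 196 of Ckm and 177 of Tnnc2. The myosin genes Myh1, Myh2 and Myh4 were at 0.049, 0.066 and 0.015 rpm there.

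Of 16406 genes tested with limma and Benjamini-Hochberg adjustment, 1022 (6.23%) differed between the diets. On the diet 456 genes (2.78%) were higher and 566 (3.45%) were lower. The smallest adjusted p was 0.0306, and 4511 genes had an unadjusted p under 0.05. Replicates of the 2 diets did not overlap for 6028 genes (36.7%). Without chow replicate 2 and diet replicate 1, 1412 genes (8.61%) passed, of which 702 were among the 1022. After centring within bins of length and GC, 545 genes (3.32%) passed, and edgeR's quasi-likelihood test on the recovered reads called 546, of which 545 were among the 1022. Leaving out diet replicate 1, 2 or 3 left 0 genes past the limma test in each case, with 4277, 2999 and 3072 at an unadjusted p under 0.05. Leaving out chow replicate 1, 2 or 3 left 8, 1728 or 1 genes. No gene named by rule passed in more than 2 of these 6 fits.

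The 10 highest log2 fold changes are given for genes past the test at a mean of 5 rpm or more, without overlap between the diets and outside the cell marker lists. Slc5a7, the high-affinity choline transporter (chr17:54273590-54299034, GRCm38), was at 2.19, 0.515 and 0.863 rpm in chow replicates 1 to 3 and 86.9, 116 and 164 rpm in diet replicates 1 to 3 (log2 fold change 6.74 ± 0.51 (SE), adjusted p = 0.0306). It was below 3 rpm in every chow replicate, and the groups did not overlap. After 4 weeks of diet it was at 1.16 to 28.9 rpm, and in isolated adipocytes at 172 ± 131 rpm (SD, n = 3). Ncan, the proteoglycan neurocan (chr8:70093085-70120873), was at 1.57, 1.04 and 0.860 rpm on chow and 27.9, 31.9 and 53.6 rpm on the diet (log2 fold change 4.89 ± 0.35 (SE), adjusted p = 0.0306), with all 3 diet replicates above chow. Fgf13, an intracellular member of the fibroblast growth factor family, was at 20.9, 6.08 and 3.03 rpm on chow and 55.3, 106 and 147 rpm on the diet (log2 fold change 3.69 ± 0.72 (SE), adjusted p = 0.04). The groups did not overlap for Fgf13, although chow replicate 1 lay above the other chow replicates. Cilp, a matrix protein of cartilage and stroma, was at 16.5, 6.01 and 6.12 rpm on chow and 89.5, 116 and 112 rpm on the diet (log2 fold change 3.62 ± 0.40 (SE), adjusted p = 0.0306), but at only 3.47 ± 2.46 rpm (SD, n = 3) in isolated adipocytes. Mest, an imprinted gene whose level in fat is a textbook marker of fat expansion, was at 126, 24.6 and 143 rpm on chow and 711, 501 and 1327 rpm on the diet (log2 fold change 3.35 ± 0.73 (SE), adjusted p = 0.049). The lowest Mest level on the diet, in replicate 2, was still above the highest level on chow. Lipf (5.28), Plppr4 (4.52), Tekt1 (4.25), Grid1 (4.12) and Hephl1 (3.61) complete these 10 genes. Otop1, which is on the brown fat marker list and so outside this ranking, had 4.27. Centring on length and GC ended the calls of Grid1 (adjusted p = 0.0596), Fgf13 (adjusted p = 0.0549) and Mest (adjusted p = 0.0645). Tekt1, a tektin of cilia, spread most within the diet group, from 1.80 to 19.6 rpm, with its highest value in diet replicate 1.

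Among genes lower on the diet, Gpx3, the secreted glutathione peroxidase (chr11:54902453-54910377), was at 1504, 1144 and 1774 rpm in chow replicates 1 to 3 and 215, 246 and 153 rpm in diet replicates 1 to 3 (log2 fold change -2.85 ± 0.27 (SE), adjusted p = 0.0306). The 3 diet levels lay close together and far below every chow level. Inmt, an N-methyltransferase, was at 184, 159 and 255 rpm on chow and 41.1, 24.1 and 7.99 rpm on the diet (log2 fold change -3.28 ± 0.57 (SE), adjusted p = 0.0343). Vamp1, a vesicle fusion protein, was at 21.6, 18.9 and 25.1 rpm on chow and 4.16, 4.09 and 1.74 rpm on the diet (log2 fold change -2.77 ± 0.37 (SE), adjusted p = 0.0306). Neither of these genes overlapped between the diets. Isolated adipocytes held 237 ± 126 rpm of Gpx3 and 3.90 ± 2.06 rpm of Inmt (SD, n = 3). The long noncoding RNA Snhg20 (-3.39), Smim5 (-2.97), Dok7 (-2.84), Prrt1 (-2.73), Klhdc8b (-2.71) and Lgals4 (-2.53) were also among the 10 lowest log2 fold changes by the same rule. Centring on length and GC ended the calls of Smim5 (adjusted p = 0.0605), Dok7 (adjusted p = 0.0561) and Lgals4 (adjusted p = 0.0563). Gps2 itself was at 45.6, 38.4 and 49.9 rpm on chow and 34.3, 25.1 and 25.7 rpm on the diet and did not pass the test (log2 fold change -0.66 ± 0.18 (SE), adjusted p = 0.0774).

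**Figure D3:**
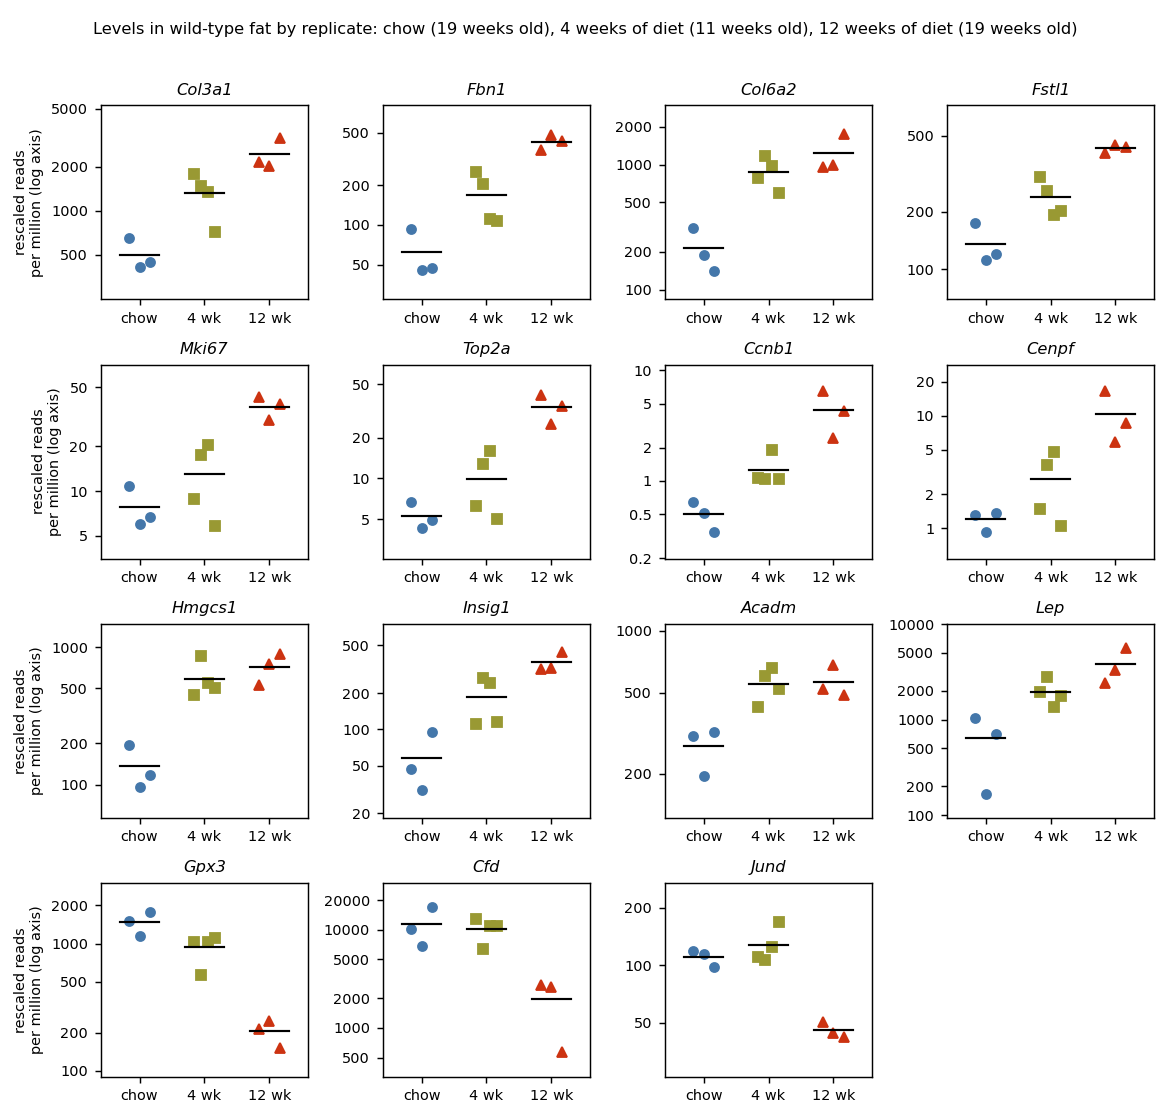
Levels of 15 genes in wild-type fat (rpm, log axis), 1 point per replicate and a line at the mean, on chow (circles), after 4 weeks of diet in younger mice (squares) and after 12 weeks of diet (triangles). Collagen, cell cycle and sterol genes lie higher at 12 weeks than on chow, and Gpx3, Cfd and Jund lie lower, although Lep, Cfd and the fatty acid oxidation gene Acadm did not pass the test.

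Of the 28 gene lists, the extracellular matrix had the most members that rose. Of 36 matrix genes tested, 21 rose (58.3%, against 2.78% of all genes) and 0 fell. All diet replicates were above all chow replicates for 29 (80.6%, against 16.5% of all genes). The median log2 fold change of the list was 1.64, against -0.01 over all genes, and it lay between 1.46 and 1.78 when any 1 replicate was left out. Summed matrix RNA was 7581 to 12212 rpm in chow, 17033 to 25575 rpm after 4 weeks of diet and 25411 to 33149.7 rpm after 12 weeks, with no overlap between chow and the long diet.

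Fibrillin, a protein of elastic microfibrils, and fibrillar collagens were among the matrix genes that rose. Fbn1, which encodes fibrillin-1 (chr2:125300594-125507993), was at 93.4, 45.7 and 47.1 rpm in chow replicates 1 to 3 and 369, 479.6 and 436 rpm in diet replicates 1 to 3 (log2 fold change 2.86 ± 0.30 (SE), adjusted p = 0.0306). Col3a1, a fibrillar collagen (chr1:45311538-45349706), was at 648, 411 and 447 rpm on chow and 2175, 2019 and 3170.1 rpm on the diet (log2 fold change 2.29 ± 0.29 (SE), adjusted p = 0.0306). In both genes every diet replicate was more than 3 times the highest chow replicate, which was replicate 1. Col1a1 and Col1a2, the chains of type I collagen, rose by 1.75 and 1.29 on the log2 scale. Col14a1, a collagen that lies along fibrils, was at 20.7, 22.8 and 7.43 rpm on chow and 74.6, 114 and 127 rpm on the diet (log2 fold change 2.75 ± 0.46 (SE), adjusted p = 0.032). Type V collagen, which sets fibril diameter, rose in all 3 genes measured, Col5a1 (1.80), Col5a2 (2.17) and Col5a3 (1.83).

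Type VI collagen, a microfibrillar collagen abundant around fat cells, rose in its 3 listed chains. Col6a2 (chr10:76595762-76623630) was at 311, 189 and 142 rpm on chow and 953, 989 and 1745 rpm on the diet (log2 fold change 2.54 ± 0.37 (SE), adjusted p = 0.0306), and Col6a1 and Col6a3 rose by 1.97 and 1.75. Col6a2 was highest in diet replicate 3, and the groups did not overlap. Basement membrane genes rose as well, with log2 fold changes of 1.70 for Col4a1, 1.65 for Col4a2, 1.92 for Col15a1, 1.71 for Nid1 and 1.32 for Nid2. The laminin genes Lamb1 (0.85), Lamc1 (0.72) and Lama4 (0.65) did not pass. Matrix-binding glycoproteins and proteoglycans that rose were Sparc (1.78), Postn (1.80), Fstl1 (1.70) and Lum (1.64). Fn1, fibronectin, had a log2 fold change of 1.64 with an adjusted p of 0.093 and did not pass, and decorin, Dcn, had 0.26 (adjusted p = 0.554).

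The matrix calls depended on the samples and on the correction for transcript properties. After centring on length and GC, 14 matrix genes rose with a list median of 1.61, without chow replicate 2 and diet replicate 1 11 rose, and edgeR called 12. In the younger mice on 4 weeks of diet, 18 of the 36 matrix genes tested had all 4 replicates above all chow replicates, where 11.2% of all genes did so. For 11 of the 21 genes that rose, the mean in isolated adipocytes was above the mean in whole fat on the same diet. Col6a2, for example, was at 1519 ± 274 rpm in adipocytes and Fbn1 at 25.5 ± 10.6 rpm (SD, n = 3), so these 2 matrix genes differed in whether isolated adipocytes or whole fat held the higher level.

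Enzymes that process and cut the matrix, and markers of fat progenitors, rose in part. Of 30 remodelling and TGF-beta genes tested, 4 rose (13.3%, against 2.78% of all genes) and 0 fell (median 0.55). Adam12, a metalloprotease, was at 10.4, 7.49 and 16.2 rpm on chow and 53.4, 107 and 87.1 rpm on the diet (log2 fold change 2.86 ± 0.36 (SE), adjusted p = 0.0306). The collagen crosslinking enzymes Lox (1.71) and Loxl2 (1.61) rose, as did Adamts2 (1.56), which trims procollagen. The crosslinker Lox was at 46.2, 16.8 and 31.1 rpm in chow, where replicate 2 was lowest, and at 90.4, 90.6 and 104 rpm on the diet, with no overlap. The TGF-beta ligands Tgfb1 (0.20), Tgfb2 (-0.80) and Tgfb3 (-0.26) did not pass. Of 24 progenitor and stromal markers 3 rose (12.5%, against 2.78% of all genes): Col15a1, Cd55 (1.83) and Mfap5 (1.54), the last 2 known from interstitial progenitors. The general fibroblast markers Pdgfra (0.53, adjusted p = 0.0764) and Ly6a (-0.00, adjusted p = 0.993) did not pass. After centring on length and GC, 2 remodelling genes and 3 stromal markers rose, and the calls of Lox (adjusted p = 0.0746), Loxl2 (adjusted p = 0.074), Adamts2 (adjusted p = 0.0564) and Mfap5 (adjusted p = 0.0564) ended.

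**Figure D4:**
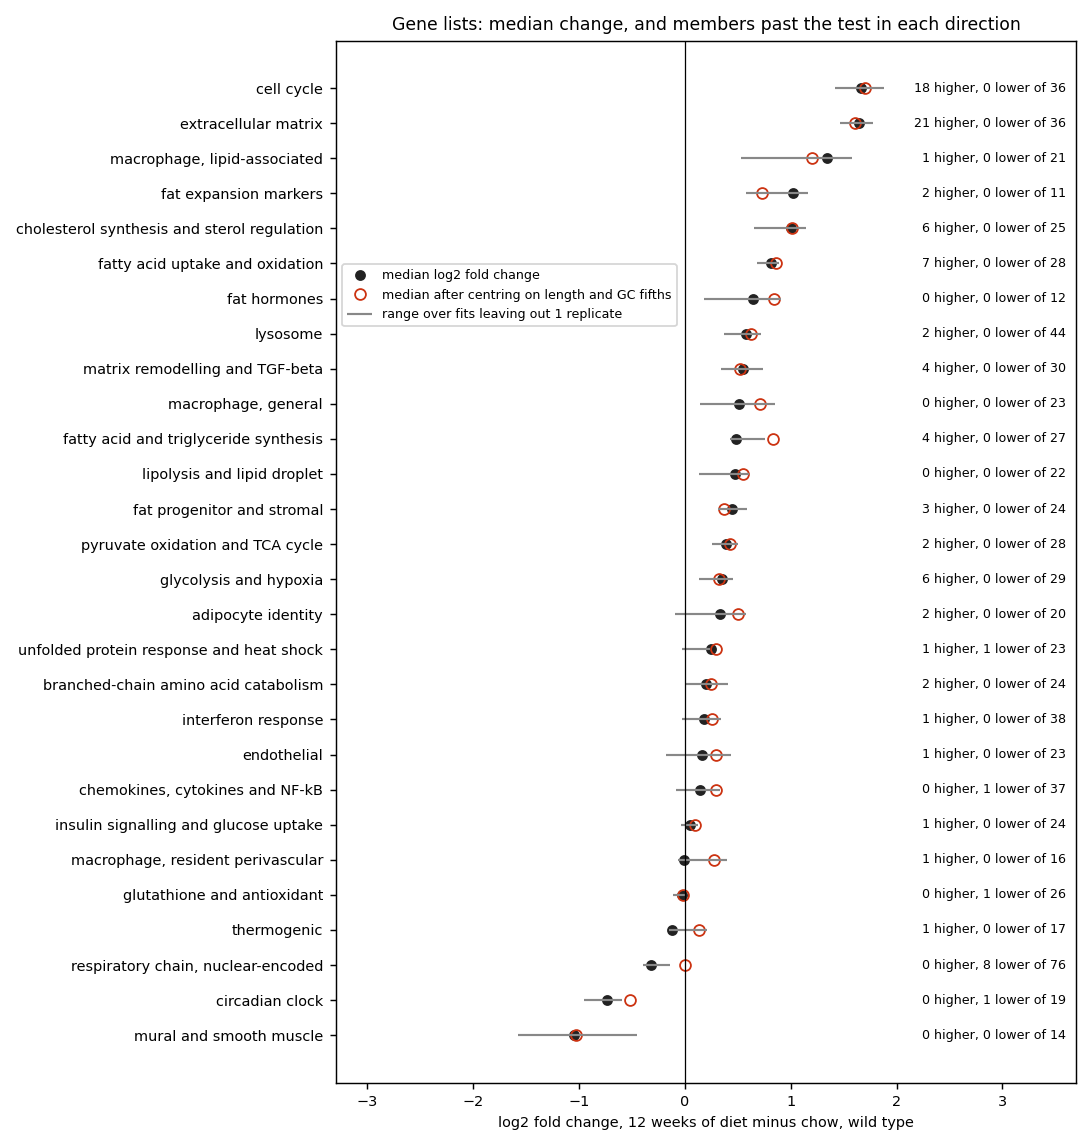
Median log2 fold change of 28 gene lists, high fat diet minus chow in wild type (filled), the same after centring within bins of transcript length and GC (open) and the range of the median over fits leaving out 1 replicate (line), with the numbers of members past the test at the right. Cell cycle and extracellular matrix lists lie highest, and the nuclear-encoded respiratory chain list moves from -0.32 to -7.1e-05 with centring.

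Cell cycle genes came next. Of 36 tested, 18 rose (50%, against 2.78% of all genes) and 0 fell. All diet replicates were above all chow replicates for 31 (86.1%, against 16.5% of all genes). The list median was 1.66 (1.42 to 1.88 over fits leaving out 1 replicate). The genes that rose act mainly in mitosis. Top2a, the topoisomerase that separates chromosomes (chr11:98992943-99024189), was at 6.72, 4.27 and 4.91 rpm in chow replicates 1 to 3 and 41.7, 25.5 and 34.4 rpm in diet replicates 1 to 3 (log2 fold change 2.65 ± 0.26 (SE), adjusted p = 0.0306). Mki67, the gene of the proliferation antigen Ki-67 (chr7:135689784-135716361), was at 10.8, 6.02 and 6.73 rpm on chow and 42.7, 29.8 and 38.4 rpm on the diet (log2 fold change 2.25 ± 0.27 (SE), adjusted p = 0.0306). Diet replicate 1 was highest and replicate 2 lowest for both, and neither gene overlapped between the diets.

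Mitotic regulators at lower levels behaved likewise. Bub1, a spindle checkpoint kinase, was at 0.542, 0.298 and 0.551 rpm on chow and 8.63, 2.62 and 3.47 rpm on the diet (log2 fold change 3.00 ± 0.55 (SE), adjusted p = 0.0368). Cenpf, a kinetochore protein, was at 1.31, 0.930 and 1.37 rpm on chow and 16.5, 5.81 and 8.56 rpm on the diet (log2 fold change 2.88 ± 0.44 (SE), adjusted p = 0.0311). Ccnb1, the mitotic cyclin B1, was at 0.645, 0.517 and 0.346 rpm on chow and 6.48, 2.47 and 4.27 rpm on the diet (log2 fold change 2.83 ± 0.49 (SE), adjusted p = 0.0331). Diet replicate 1, which also held the sperm genes, was the highest for all 3 of these genes, and diet replicates 2 and 3 also lay above chow. The spindle motors and their partners Kif20a (2.57), Kif11 (2.47), Prc1 (2.40) and Tpx2 (2.32) rose, and so did the kinase gene Cdk1 (2.04). Of the replication licensing genes, Mcm5 rose (1.17), while Mcm2 (0.29), Mcm3 (0.58), Mcm4 (0.15), Mcm6 (0.66) and Mcm7 (-0.24) did not pass. Pcna (0.41, adjusted p = 0.183) and Ccnd1 (-0.42, adjusted p = 0.715) did not pass either.

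Without chow replicate 2 and diet replicate 1, 10 cell cycle genes rose and the median was 1.38, a set that drops the library of sperm genes together with a chow library. With centring on length and GC 14 rose while the calls of Bub1 (adjusted p = 0.0638) and Ccnb1 (adjusted p = 0.0514) ended, and edgeR called 9. For 9 of the 36 genes tested all 4-week replicates were above all chow replicates, where 11.2% of all genes did so. Mki67 after 4 weeks was at 5.82 to 20.3 rpm, which spans the chow values, and Top2a was at 5.04 to 15.9 rpm. Isolated adipocytes had a higher mean than whole fat for 1 of the 18 that rose, with Top2a at 4.80 ± 4.22 rpm (SD, n = 3) against 33.9 ± 8.11 rpm (SD, n = 3) in whole fat. The cell cycle sum was 323, 395 and 653 rpm in adipocyte replicates 1 to 3, of which replicate 3 was also highest in macrophage markers. Macrophage markers also differed among the diet replicates, with replicate 3 highest, and the cell cycle sum, also highest in replicate 3, was 729.8, 607 and 856 rpm in diet replicates 1 to 3. The mean log2 level of the cell cycle list was instead highest in diet replicate 1, at 3.99, 3.36 and 3.83 in replicates 1 to 3. The part of macrophage content in the cell cycle levels was not tested.

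Genes of cholesterol synthesis and of its sterol control rose in part. Cells make cholesterol from acetyl-CoA through mevalonate and squalene, and SREBP factors switch the enzymes on when sterols are low, with INSIG proteins holding SREBP back. Of 25 genes tested 6 rose (24%, against 2.78% of all genes) and 0 fell. All diet replicates were above all chow replicates for 14 (56%, against 16.5% of all genes), and the median was 1.00 (0.66 without diet replicate 3). Insig1, the sterol sensor partner (chr5:28071363-28078662), was at 47.3, 31.6 and 95.8 rpm on chow and 316, 324 and 444 rpm on the diet (log2 fold change 2.77 ± 0.40 (SE), adjusted p = 0.0306). Hmgcs1, which makes HMG-CoA (chr13:119690379-119708260), was at 194, 96.2 and 116 rpm on chow and 526, 753 and 883 rpm on the diet (log2 fold change 2.44 ± 0.32 (SE), adjusted p = 0.0306). Both were highest in diet replicate 3 and did not overlap between the diets. The later enzymes Lss (1.96), Nsdhl (1.87) and Hsd17b7 (1.47) rose. The transcription factor gene Srebf2 (-0.44) and the escort gene Scap (-0.44) did not pass. With centring on length and GC 5 rose, edgeR called 4, and without chow replicate 2 and diet replicate 1 10 rose. All 6 had higher means in isolated adipocytes than in whole fat, with Hmgcs1 at 996 ± 381 rpm (SD, n = 3) against 721 ± 181 rpm.

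The promoter of Hmgcs1 is shown because it is the gene of this list that rose and carried a sterol element motif. Both strands of the RefSeq windows from 250 bases before to 50 bases after the start (GRCm38.p6) were searched for TCACNCCAC, in which N is any base. The 150 bases before the start of Hmgcs1 (chr13:119690201-119690350, plus strand) are printed 5′ to 3′ with the motif in capitals, 137 to 129 bases before the start.
Hmgcs1: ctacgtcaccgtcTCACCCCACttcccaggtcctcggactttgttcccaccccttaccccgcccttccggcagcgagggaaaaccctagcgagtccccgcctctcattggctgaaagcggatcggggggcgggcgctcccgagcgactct
Of 18 sterol genes with a window, this 1 (5.56%) held the motif, against 178 of 12132 tested genes (1.47%). The other 4 genes that rose and had a window held no match of these letters.

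Fatty acid uptake and oxidation genes rose in part. Of 28 tested, 7 rose (25%, against 2.78% of all genes) and 0 fell, and the median was 0.81. All diet replicates were above all chow replicates for 19 (67.9%, against 16.5% of all genes). Fabp5, a fatty acid carrier of fat and macrophages, was at 120.3, 47.7 and 97.5 rpm on chow and 285, 330.2 and 338 rpm on the diet (log2 fold change 1.94 ± 0.34 (SE), adjusted p = 0.0351). Acadl, the long-chain acyl-CoA dehydrogenase, was at 217, 135 and 204 rpm on chow and 433, 579.9 and 410.1 rpm on the diet (log2 fold change 1.36 ± 0.25 (SE), adjusted p = 0.0364). Neither overlapped between the diets, and chow replicate 2, the library low in adipocyte genes, was lowest for both. The trifunctional protein genes Hadha (0.80) and Hadhb (1.31), the peroxisomal Hsd17b4 (1.29), the electron carrier gene Etfdh (1.18) and the activating enzyme gene Acsl1 (1.21) rose. The fatty acid transporter gene Cd36 (1.66, adjusted p = 0.0747) and the carnitine transferase genes Cpt1a (0.93, adjusted p = 0.0568) and Cpt2 (0.70, adjusted p = 0.135) did not pass. For 20 of the 28 tested, every 4-week replicate was above all chow replicates, where 11.2% of all genes did so. For all 7 that rose, the adipocyte mean was above whole fat. Without chow replicate 2 and diet replicate 1, 6 rose and the median was 0.76. With centring on length and GC 5 rose and the call of Acsl1 (adjusted p = 0.0647) ended, and edgeR called 3.

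Genes of lipid synthesis and sugar breakdown rose in part. Of 27 fatty acid and triglyceride synthesis genes 4 rose (14.8%, against 2.78% of all genes) and 0 fell (median 0.48): Acss2 (1.90), which makes acetyl-CoA from acetate, the NADPH-forming Pgd (1.23) and G6pdx (1.22), and Gpam (1.11), the first acyltransferase of triglyceride synthesis. Acss2 was at 55.2, 121 and 114 rpm on chow and 211, 400.4 and 467 rpm on the diet, highest in diet replicate 3 and not overlapping. The core enzymes Fasn (1.15, adjusted p = 0.117), Acaca (-0.22, adjusted p = 0.685) and Scd1 (1.35, adjusted p = 0.157) did not pass. With centring on length and GC 1 of this list rose, and edgeR called 1. Centring ended the calls of Acss2 (adjusted p = 0.06), Pgd (adjusted p = 0.0563) and G6pdx (adjusted p = 0.0528). Of 29 glycolysis and hypoxia genes 6 rose (20.7%, against 2.78% of all genes) and 0 fell (median 0.35). Among them was the hypoxia factor gene Hif1a, at 44.5, 53.2 and 51.2 rpm on chow and 91.9, 134 and 179.7 rpm on the diet (log2 fold change 1.39 ± 0.25 (SE), adjusted p = 0.0364). The glycolytic Tpi1 (1.33), Pfkp (1.11), Pgam1 (1.03), Eno1 (0.83) and Pfkl (0.65) rose, while Vegfa, a hypoxia target, had -1.40 (adjusted p = 0.0665) and Slc2a1, the glucose transporter GLUT1, -0.51 (adjusted p = 0.172). With centring 4 of this list rose, and the calls of Hif1a (adjusted p = 0.0528) and Pfkp (adjusted p = 0.051) ended.

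Of 28 pyruvate oxidation and TCA cycle genes 2 rose (7.14%, against 2.78% of all genes) and 0 fell. Pdk4, the kinase that holds back pyruvate dehydrogenase, was at 84.6, 47.6 and 28.1 rpm on chow and 172, 227 and 182 rpm on the diet (log2 fold change 1.99 ± 0.39 (SE), adjusted p = 0.04), and the succinyl-CoA ligase gene Sucla2 rose by 0.99. Every Pdk4 level on the diet was above chow, where replicate 1 was highest. Of 24 branched-chain amino acid genes 2 rose (8.33%, against 2.78% of all genes), Oxct1 (1.33), which also uses ketone bodies, and Mut (0.89), which feeds propionate carbon into the TCA cycle. Centring ended the calls of Pdk4 (adjusted p = 0.0585) and Mut (adjusted p = 0.092). Of 24 insulin signalling and glucose uptake genes 1 rose (4.17%, near the 2.78% of all genes) and 0 fell. The insulin-responsive transporter gene Slc2a4 had -0.28 (adjusted p = 0.6), and the receptor substrates Irs1 and Irs2 had -0.86 (adjusted p = 0.107) and -0.29 (adjusted p = 0.454).

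Defining adipocyte genes and hormones mostly did not pass. Of 20 adipocyte identity genes 2 rose (10%, against 2.78% of all genes) and 0 fell (median 0.33, and -0.13 without chow replicate 2 and diet replicate 1): Gpd1 (1.54), which makes glycerol phosphate, and Acsl1. Centring left 0 of these calls, and edgeR called 0. Adipoq, the gene of adiponectin, was at 3879, 1595 and 3750.3 rpm on chow and 4014, 4133 and 2897 rpm on the diet (log2 fold change 0.35 ± 0.42 (SE), adjusted p = 0.617), and Pparg, the master factor of adipogenesis, at 189.6, 83.4 and 270.5 rpm on chow and 219, 223 and 236 rpm on the diet (log2 fold change 0.48 ± 0.41 (SE), adjusted p = 0.505). The groups overlapped in both genes, with chow replicate 2 lowest. Of 12 fat hormone genes tested 0 passed in limma, with 6 at an unadjusted p under 0.05, 0 by edgeR and 4 by DESeq2. Lep, the leptin gene, was at 1039, 168 and 709 rpm on chow and 2407, 3322 and 5644 rpm on the diet (log2 fold change 2.84 ± 0.71 (SE), adjusted p = 0.0641), and all diet levels were above all chow levels. Cfd, the gene of adipsin, was at 10269.5, 6788 and 16932 rpm on chow and 2708, 2629.8 and 566 rpm on the diet (log2 fold change -2.73 ± 0.70 (SE), adjusted p = 0.0669), with all diet levels below chow. Leptin RNA after 4 weeks of diet was at 1355 to 2808 rpm and Cfd at 6353 to 12823 rpm, so all 4 Lep levels were above chow while the Cfd levels lay within or near the chow range. Adrb3, a beta-adrenergic receptor gene of fat cells, did not pass (-1.59, adjusted p = 0.0977). Of 22 lipolysis and lipid droplet genes 0 passed in limma, with 6 at an unadjusted p under 0.05, 0 by edgeR and 6 by DESeq2. For both lists the counts over all 16406 genes were 4511 at an unadjusted p under 0.05, 546 by edgeR and 3841 by DESeq2. Of 17 thermogenic genes 1 rose (5.88%, against 2.78% of all genes), the proton channel gene Otop1 (4.27), which spread from 3.17 to 25.9 rpm on the diet. The list median was -0.13, with 7 genes higher and 10 lower. Summed thermogenic RNA was 1464 to 1781 rpm on chow and 515 to 694 rpm on the diet. The mean log2 level of the list overlapped, at 2.66 to 3.07 on chow and 2.66 to 3.31 on the diet.

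General and lipid-associated macrophage lists had medians above that of all genes, and the median of the resident perivascular list was close to it (-0.01, with 8 of 16 genes higher). Over fits leaving out 1 replicate, the general median ran from 0.14 to 0.85 and the resident median from -0.065 to 0.40. Of 23 general macrophage markers 0 passed in limma (median 0.51), with 1 at an unadjusted p under 0.05, 0 by edgeR and 1 by DESeq2. Over all 16406 genes these last 3 counts were 4511, 546 and 3841. Adgre1, the gene of F4/80, was at 38.2, 19.8 and 19.0 rpm on chow and 48.6, 52.3 and 139 rpm on the diet (log2 fold change 1.53 ± 0.47 (SE), adjusted p = 0.0986), and Cd68 had 1.29 (adjusted p = 0.198). Diet replicate 3 carried the high Adgre1 value, and the 2 other diet replicates lay nearer to the highest chow level than to it. Of 21 genes of lipid-associated macrophages 1 rose (4.76%, near the 2.78% of all genes), Fabp5, which fat cells express too (median 1.35, 0.53 to 1.58 over fits leaving out 1 replicate). Trem2, their lipid receptor, was at 17.1, 9.56 and 4.75 rpm on chow and 13.4, 6.01 and 68.7 rpm on the diet (log2 fold change 0.94 ± 0.92 (SE), adjusted p = 0.547), and Gpnmb at 36.8, 36.3 and 16.2 rpm on chow and 54.4, 15.5 and 412 rpm on the diet (log2 fold change 1.33 ± 1.13 (SE), adjusted p = 0.492). Diet replicate 3 was the highest for both, and the other 2 diet replicates lay within or near the chow range. Lyve1, a marker of resident perivascular macrophages and of lymphatic vessels, was at 15.1, 12.3 and 7.89 rpm on chow and 28.2, 55.1 and 36.0 rpm on the diet (log2 fold change 1.74 ± 0.33 (SE), adjusted p = 0.0391). Lyve1 was the 1 of 16 resident macrophage genes (6.25%) and the 1 of 23 endothelial genes (4.35%) to rise, against 2.78% of all genes. In chemokine and cytokine genes 0 of 37 rose and 1 fell (2.7%, near the 3.45% of all genes), Mif (-0.74). Ccl2 had 2.11 (adjusted p = 0.129) and Tnf -0.43 (adjusted p = 0.74). Mif had the other sign on the deposited scale. Of 38 interferon genes 1 rose (2.63%, near the 2.78% of all genes), Gbp2 (1.24). Centring on length and GC ended the calls of Lyve1 (adjusted p = 0.0563), Mif (adjusted p = 0.577) and Gbp2 (adjusted p = 0.0606).

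Of 44 lysosomal genes 2 rose (4.55%, near the 2.78% of all genes), and 24 had all diet levels above chow (54.5%, against 16.5% of all genes) (median 0.58, 0.37 to 0.72 over fits leaving out 1 replicate). Ctsd, the protease cathepsin D, was at 1473, 1039 and 1015 rpm on chow and 2865, 2824 and 3789 rpm on the diet (log2 fold change 1.43 ± 0.27 (SE), adjusted p = 0.0388), and Smpd1, acid sphingomyelinase, at 92.5, 67.5 and 93.6 rpm on chow and 142, 165 and 153 rpm on the diet (log2 fold change 0.87 ± 0.18 (SE), adjusted p = 0.0411). Neither gene overlapped between the diets. The acid lipase gene Lipa (1.35, adjusted p = 0.116) and the proton pump subunit gene Atp6v1a (1.04, adjusted p = 0.0527) did not pass. Without chow replicate 2 and diet replicate 1, 5 lysosomal genes rose, and edgeR called 0. Centring ended the call of Smpd1 (adjusted p = 0.0528). Exons of other genes overlap part of the Ctsd transcript used, and with the use of strand in counting not stated, reads of the overlapping genes cannot be told apart.

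Promoters of lysosomal genes are known for the CLEAR element bound by TFEB, and 4 are shown so that a gene that rose stands beside ones that did not pass. The windows were searched for TCACGTGA, which reads the same on both strands. The 150 bases before the start are printed 5′ to 3′ with the motif in capitals, for Ctsd (chr7:142387828-142387977, minus strand), Atp6v1a (chr16:44139260-44139409, minus strand), Ctsa (chr2:164833623-164833772, plus strand) and Mcoln1 (chr8:3500369-3500518, plus strand).
Ctsd: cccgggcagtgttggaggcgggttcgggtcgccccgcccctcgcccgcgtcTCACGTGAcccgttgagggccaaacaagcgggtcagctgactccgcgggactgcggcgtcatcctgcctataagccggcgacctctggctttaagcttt
Atp6v1a: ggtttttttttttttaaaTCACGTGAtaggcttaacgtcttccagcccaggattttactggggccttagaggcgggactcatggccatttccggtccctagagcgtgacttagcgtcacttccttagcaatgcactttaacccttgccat
Ctsa: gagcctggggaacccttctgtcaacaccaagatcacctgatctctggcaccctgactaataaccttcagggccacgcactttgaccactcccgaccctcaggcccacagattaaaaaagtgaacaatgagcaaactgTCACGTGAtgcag
Mcoln1: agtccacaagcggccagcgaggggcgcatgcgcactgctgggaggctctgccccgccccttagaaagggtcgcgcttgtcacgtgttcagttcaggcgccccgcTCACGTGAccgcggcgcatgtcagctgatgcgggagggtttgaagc
The motif lay in 6 of 32 lysosomal genes with a window (18.8%), against 235 of 12132 tested genes (1.94%). Of these genes that rose, 1 of 2 held it, and of the others 5 of 30. The median log2 fold change was 0.45 in the 6 with the motif and 0.65 in the 26 without it. The genes printed ran from 1.43 in Ctsd and 1.04 in Atp6v1a to 0.16 in Ctsa and 0.01 in Mcoln1, so a match did not go with one size of change.

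The respiratory chain had the most members that fell. Of 76 nuclear-encoded subunits 8 fell and 0 rose (10.5%, against 3.45% of all genes), with a median of -0.32, which was 1.41 on the deposited scale without rescaling. After centring within bins of transcript length and GC the median was -7.1e-05 and 0 passed. Ndufa5, a complex I subunit, was at 78.7, 88.6 and 104 rpm on chow and 45.5, 46.4 and 35.1 rpm on the diet (log2 fold change -1.09 ± 0.17 (SE), adjusted p = 0.0311), and Cox5b, of complex IV, at 146, 148 and 182 rpm on chow and 70.6, 87.9 and 69.3 rpm on the diet (log2 fold change -1.07 ± 0.17 (SE), adjusted p = 0.0311). The diet levels of both lay below all chow levels. The others that fell were all of complex I: Ndufa6 (-0.94), Ndufs7 (-0.90), Ndufa3 (-0.75), Ndufa7 (-0.70), Ndufb10 (-0.70) and Ndufb7 (-0.66). Subunit genes with values on the other side of 0 included Ndufs1 (0.69, adjusted p = 0.075) and Atp5b (0.47, adjusted p = 0.264). Of 26 antioxidant genes Gpx3 alone passed (3.85%, near the 3.45% of all genes that were lower). Of 23 heat shock and unfolded protein genes Hsp90aa1 rose (1.35) and Atf4 fell (-0.69, with the other sign on the deposited scale). Each was 4.35% of that list, against 2.78% of all genes higher and 3.45% lower. Centring ended the calls of Hsp90aa1 (adjusted p = 0.0786) and Atf4 (adjusted p = 0.0889). The 8 tested genes of the mitochondrial genome lay on the other side of 0 from the nuclear list, with all 8 log2 fold changes above 0 and a median of 1.05. None passed in limma (0, with 3 at an unadjusted p under 0.05, 0 by edgeR and 4 by DESeq2). Over all 16406 genes these last 3 counts were 4511, 546 and 3841. The summed level of the 8 and the other listed mitochondrial genes was 17789.9, 20676 and 29339 rpm in chow replicates 1 to 3 and 38289, 61987 and 25762 rpm in diet replicates 1 to 3, which overlapped. Centring on length and GC was not examined for this list.

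The smooth muscle and mural list had a median of -1.05 with 0 of 14 past the limma test, 2 at an unadjusted p under 0.05, 0 by edgeR and 2 by DESeq2. Over all 16406 genes these last 3 counts were 4511, 546 and 3841. Myh11, the smooth muscle myosin, was at 64.7, 8687 and 94.4 rpm on chow and 58.3, 61.9 and 44.0 rpm on the diet (log2 fold change -2.79 ± 1.78 (SE), adjusted p = 0.364). Chow replicate 2 stood far above the other 5 replicates, and without it the list median was -0.46. All diet levels were below all chow levels for 6 of the 14 (42.9%, against 20.3% of all genes). Kcnj8 and Abcc9, named by rule, did not pass. Over fits leaving out 1 replicate their log2 fold changes ran from -1.29 to -0.83 and from -0.40 to -0.28. The pericyte genes Rgs5 (-0.22, adjusted p = 0.62) and Pdgfrb (-0.00, adjusted p = 0.997) did not pass either.

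The same diet contrast in libraries labelled knockout, which sat in the same 2 tables and so share the split by run, called 1435 genes higher (8.75%) and 1336 lower (8.14%). Some of these libraries stood apart from the others, and their part in the calls was not tested. Chow replicates 1 and 2 labelled knockout differed from each other by a chi-square per degree of freedom of 7.20, against 154 to 1089 for every other pair of replicates in these 4 groups and 1.04 to 1.16 for repeat libraries. Averaged as 1 sample, an alternative chosen after seeing the data, they left 0 genes past the test, with 3903 at an unadjusted p under 0.05. Averaging also leaves fewer samples, and in wild type leaving out any 1 replicate gave 0 to 1728 genes. Without chow replicate 1, 2 or 3 labelled knockout, 66, 0 and 4167 genes passed. Epididymis and testis markers summed to 12279.9, 11473 and 2.08 rpm in chow replicates 1 to 3 labelled knockout and to 0.686, 3608 and 1149.7 rpm in the diet replicates.

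Levels in these libraries are therefore given as values beside the wild type. The matrix list had a median of 1.27, or 1.22 with the near-identical replicates averaged and 0.89 between the 1 chow and the 1 diet library with little epididymal or testis RNA, a pair that allows no test. For the cell cycle list these medians were 0.54, 0.56 and 0.54, and for the cholesterol list 0.11, 0.05 and -0.20. For Mest the log2 fold change was 3.35 in wild type against 0.13 where the label was knockout, and for Top2a 2.65 and 0.88. The limma interaction of diet with genotype label passed for 0 of 16406 genes, with 1264 at an unadjusted p under 0.05, 0 by edgeR and 327 by DESeq2, and for 0 with the near-identical replicates averaged (752 unadjusted), so these differences in size between the genotypes were not shown by the main test.

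**Figure D5:**
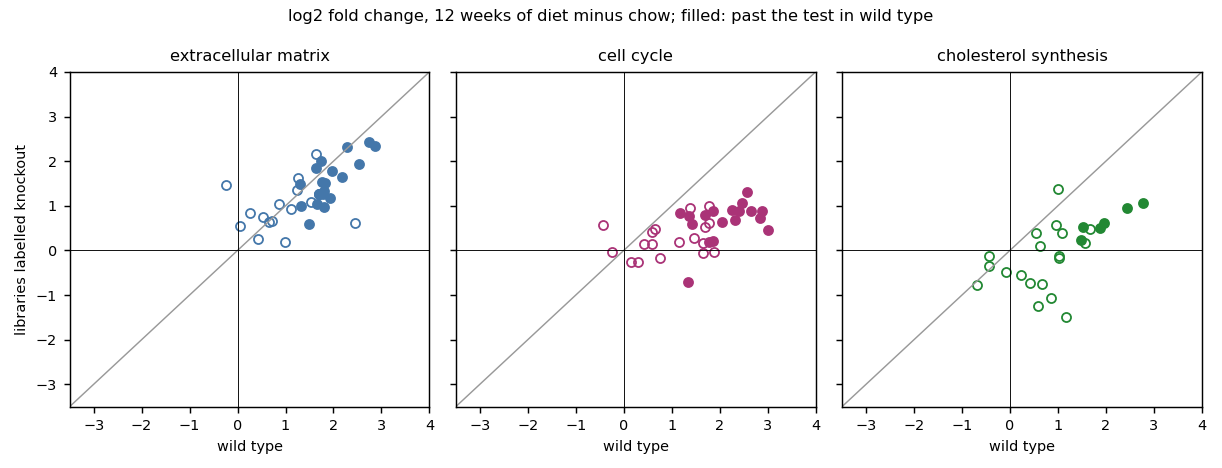
Log2 fold change of each gene, high fat diet minus chow, in wild type (x axis) against the libraries labelled knockout (y axis), for the matrix, cell cycle and cholesterol lists. Filled points passed the test in wild type and the diagonal marks equal values. Most matrix genes lie near the diagonal, while most cell cycle points lie between the x axis and the diagonal.

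After 4 weeks of diet, in younger mice and a separate table, 1836 genes (11.2%) had all 4 replicates above all chow replicates and 2394 (14.6%) had all below. Age, diet length and run all differ in that comparison and cannot be told apart. Acadl was at 294 to 448 rpm there against 410.1 to 579.9 rpm after 12 weeks. Hmgcs1 was at 446 to 857 rpm against 526 to 883 rpm. These 2 metabolic genes overlapped between the diet lengths. Fbn1, at 107 to 251 rpm, and Top2a, at 5.04 to 15.9 rpm, lay below all 12-week levels, and Gpx3, at 565 to 1106 rpm, lay above them.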

How the data were processed

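Poly(A) RNA of intra-abdominal fat was sequenced with a stranded kit, per the labels' protocols. The build listed is GRCm38.p4 and the tools are STAR 2.4.0k, HTSeq 0.5.3, DESeq 1.8.3, SAMtools and bcl2fastq 2.17, per the submitters' processing notes. The authors deposited normalised signal per Ensembl transcript, 1 table per run. Division by each library's step gave whole reads for 100% of values (tolerance 0.01). Of 89755 transcripts in both tables, the most abundant per gene was used (26485 genes, GENCODE M21 names), and rows without a gene held 0.351% of the value. 1 column matching no sample was left out. Repeat libraries differed by sampling noise (chi-square per degree of freedom 1.04 to 1.16) and were counted as 1 sample.

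Genes with a mean of at least 0.5 rpm were put on a TMM common scale and tested with limma 3.58.1 (trend, robust, R 4.3.3) on log2(rpm + 0.1), threshold 0.05 after Benjamini-Hochberg adjustment. This scale understates changes of low genes. edgeR 4.0.16 and DESeq2 1.42.0 on the recovered reads were alternatives. The test was checked on simulated data, where it recovered the sizes of change but called only part of the largest changes and none of the smaller ones. Members, lists and tests were chosen with earlier results of these data known. Named were the 10 highest and 10 lowest fold changes (mean of at least 5 rpm, no overlap, no predicted, pseudogene, immune receptor or cell marker list genes), up to 4 called members per list, and textbook members. Some genes that this rule names are not reported here.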

Additional observations from a re-analysis of the deposited data

Results flagged for a closer look

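In wild-type fat after 4 weeks of high fat diet, Gpx3 was at 1039, 1025 and 1106 rpm in replicates 1, 3 and 4 and at 565 rpm in replicate 2. The gap between replicate 2 and its nearest neighbour was 0.851 of the whole range, more than Dixon's test allows at 95% for 4 samples. Of 15 genes and list sums examined this way 1 stood out, and chance alone marks about 1 in 20.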

How the results depend on the processing

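Of 1022 calls in wild type, 270 genes passed in limma without trend and robust moderation, 545 after centring within GC and length bins, 546 with edgeR, 3841 with DESeq2, 1752 when scaled by the total (21.1% higher against 44.6%, with all genes' median at -0.21) and 11828 on values as deposited. DESeq2 size factors gave 1030, of which 52.5% were higher. No gene passed without the filter on low values, without chow replicates 1 and 2, or in a test for changes beyond 1 on the log2 scale (0 each, with 5170, 3974 and 506 at an unadjusted p under 0.05). Leaving out 1 replicate gave 0 to 1728. A replicate block gave 0 in wild type, 857 in the libraries labelled knockout and 0 for the interaction. Same-numbered samples correlated at -0.20, -0.07 and -0.13 in wild type, so the numbers were not taken as pairs.

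In the libraries labelled knockout, 2771 genes passed, 12236 on values as deposited, 4971 with DESeq2, 0 for changes beyond 1, 0 with chow replicates 1 and 2 averaged as 1 sample, and 0 to 4167 leaving out 1 replicate. The interaction had 327 with DESeq2 and 0 to 152 leaving out 1 replicate.

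On values as deposited, which keep the scale gap between the tables, the sign turned for Ndufa5 (0.63), Cox5b (0.66), Ndufa6 (0.78), Ndufs7 (0.82), Mif (0.98), Kcnj8 (0.70), Abcc9 (1.40), Atf4 (1.03), Gps2 (1.06) and the medians of the respiratory chain (1.41) and circadian (0.99) lists. The median of the unfolded protein list ran from -0.023 without diet replicate 3 to 0.239 without chow replicate 1. Over all alternatives, the 76 named genes kept direction and side of the threshold 1250 times, lost the call 773 times, gained it 17 times and reversed 9 times, and list medians stayed 695 times, moved 58 times and reversed 3 times. The causes were not tested, and 3 samples per group limit what can be called.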

Other observations

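Circadian clock genes were tested as a list of 19. On the diet 1 fell (5.26%, near the 3.45% of all genes) and 0 rose, the median log2 fold change was -0.73, and 11 had all diet levels below chow (57.9%, against 20.3% of all genes). Dbp, a clock output factor, was at 36.7, 139 and 250.4 rpm on chow and 32.2, 18.3 and 12.4 rpm on the diet (log2 fold change -2.48 ± 0.72 (SE), adjusted p = 0.0879), and Per3, a period gene, at 69.3, 64.2 and 227 rpm on chow and 40.7, 29.5 and 11.6 rpm on the diet (log2 fold change -2.05 ± 0.63 (SE), adjusted p = 0.0995). Arntl, the gene of BMAL1 and a positive arm of the clock, was at 9.20, 6.35 and 1.90 rpm on chow and 11.0, 20.4 and 21.9 rpm on the diet (log2 fold change 1.79 ± 0.60 (SE), adjusted p = 0.118). None of these 3 passed, and Arntl lay on the other side of 0 from Dbp and Per3. In the libraries labelled knockout the log2 fold change of Dbp was -2.38 and that of Arntl 1.92. The hour of tissue collection is not stated in the labels.

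Immediate early genes respond within minutes to handling and stress. Of 21 tested, 4 were lower (19%, against 3.45% of all genes) and 0 higher: Jund (-1.27), Junb (-1.23), Ier2 (-1.21) and Dusp1 (-1.01). Centring on length and GC was not examined for this list, so the part of these properties in its calls was not tested. Jund was at 119, 114 and 97.6 rpm on chow and 50.3, 44.4 and 42.0 rpm on the diet (log2 fold change -1.27 ± 0.14 (SE), adjusted p = 0.0306), with no overlap. Fos was at 10.8, 5.02 and 33.0 rpm on chow and 7.96, 7.77 and 19.2 rpm on the diet (log2 fold change -0.20 ± 0.71 (SE), adjusted p = 0.875) and overlapped between the diets. Ddx3y, a gene of the Y chromosome, was at 54.6, 50.4 and 49.4 rpm on chow and 77.8, 128 and 107 rpm on the diet (log2 fold change 0.99 ± 0.20 (SE), adjusted p = 0.0417), while its Y-linked neighbours Eif2s3y (-0.10) and Kdm5d (-0.54) did not pass, so Y-linked genes did not move together.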
